A study of Oryctolagus cuniculus with 12 samples.

Results

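Coarctation of the aorta is a narrowing of the proximal descending thoracic aorta, and the comparison described here asked which genes still differed in the aortic wall months after such a narrowing had been relieved. The Corrected group consisted of male New Zealand white rabbits in which a degradable Vicryl suture placed on the proximal descending aorta at about 10 weeks of age imposed a blood pressure gradient of about 20 mmHg. As this suture was absorbed the stenosis opened again, leaving a slight narrowing. The Control group consisted of non-experimental male New Zealand white rabbits. Another group, CoA, carried a permanent silk suture and entered the model for its spread between animals. All rabbits were 32 weeks old when a 4 mm ring of thoracic aorta was taken upstream of the coarctation site, and each rabbit gave 1 Cy3-labelled array, so that array and animal are the same unit. Members were chosen by the sample labels as the 4 Control arrays and Corrected replicates 1, 2 and 4, which are 7 of the 12 arrays of the series. The remaining Corrected array, replicate 3, which had been excluded before the original comparison, entered no fit of the main result, and its values are given separately. The model mimics the morphology after surgical repair by suture degradation, not by resection, and no sham-operated group was analysed here, so that surgery and relieved coarctation cannot be told apart.

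The wall of the thoracic aorta is built of smooth muscle cells held between elastic lamellae and collagen, lined by endothelium and covered by an adventitia with fibroblasts, nerves, small vessels and fat. Smooth muscle of a healthy artery is contractile and expresses smooth muscle myosin, actin, tropomyosin and calponin. Under raised pressure arteries thicken, matrix is laid down and cut by metalloproteinases, and smooth muscle cells can lose contractile proteins while macrophages enter the wall. After pressure is normalised, some of these changes regress and others can remain.

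A signal here is the log2 of the processed signal of a probe after quantile normalization, and a difference of 1 is a 2-fold change. Of 43603 probes, 3368 (7.72%) could be named through their RefSeq accession, giving 1264 genes, of which 956 were tested by their brightest probe. Between 69.7% and 77.7% of spots were well above background on the Control arrays and between 61.8% and 68.5% on the 3 Corrected arrays. No slide identifier was read, and arrays with the same scan time in their headers were taken to share a slide. On this inference Control replicates 1, 2 and 4 and Corrected replicate 2 shared a slide, and Corrected replicates 1, 3 and 4 were on another. The CoA arrays had a slide of their own, and Control replicate 3 had a slide to itself, with a different scan date. Control replicates 3 and 4 were closer to each other than any other pair (r = 0.993 over probes), though on different slides. That they came from separate rabbits rests on the sample titles, and their mean entered an alternative as 1 sample. The first principal component (40.0% of the variance) set Corrected replicate 4 apart, and the second (27.8%) set Control replicate 2 and Corrected replicate 2 apart. The defining smooth muscle marker MYH11 was read at 12.46 to 14.55 on the Control arrays and 13.86 to 14.09 on the Corrected arrays, and ACTA2 at 14.92 to 16.26 and 15.88 to 16.40. The endothelial enzyme NOS3 lay at 4.88 to 6.17 and 4.43 to 6.69. In whole rings, fewer cells of a type and less RNA per cell cannot be told apart.

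Among the 956 genes that could be named, the largest called differences between Corrected and Control aorta were higher INMT, MYH1 and SAA3 and lower MYOC, GET1 and CD5, and no gene passed adjustment over all probes. With a change above 2-fold and unadjusted p below 0.05, 1471 of 27283 probes tested (5.39%) were called, 658 of them higher (2.41%) and 813 lower (2.98%) in Corrected aorta. Of the 956 named genes, 67 were called (7.01%), 34 higher (3.56%) and 33 lower (3.45%). No probe passed a Benjamini-Hochberg adjusted p of 0.05 in limma, where the smallest adjusted p was 0.240, while 2278 probes had an unadjusted p under 0.05 (8.35%). Past 6-fold lay 208 probes (0.762%), 18 higher and 190 lower, and of the named genes by their brightest probe 3 passed 6-fold, INMT, MYH1 and SAA3, all higher. Below, "rose" and "fell" mean past 2-fold at unadjusted p under 0.05, a value after ± is the standard error of a log2 difference, and Control 3 is short for Control replicate 3. With 4 against 3 arrays the exact permutation test cannot go below a two-sided p of 0.0571, which every gene whose groups did not overlap reached (94 genes, 9.83%). The 4 Control and 3 Corrected arrays did not overlap for 41 of the 67 called genes (4.29% of genes tested were both called and without overlap). The median log2 change was 0.025 over all probes and 0.097 over the 956 genes.

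**Figure D1:**
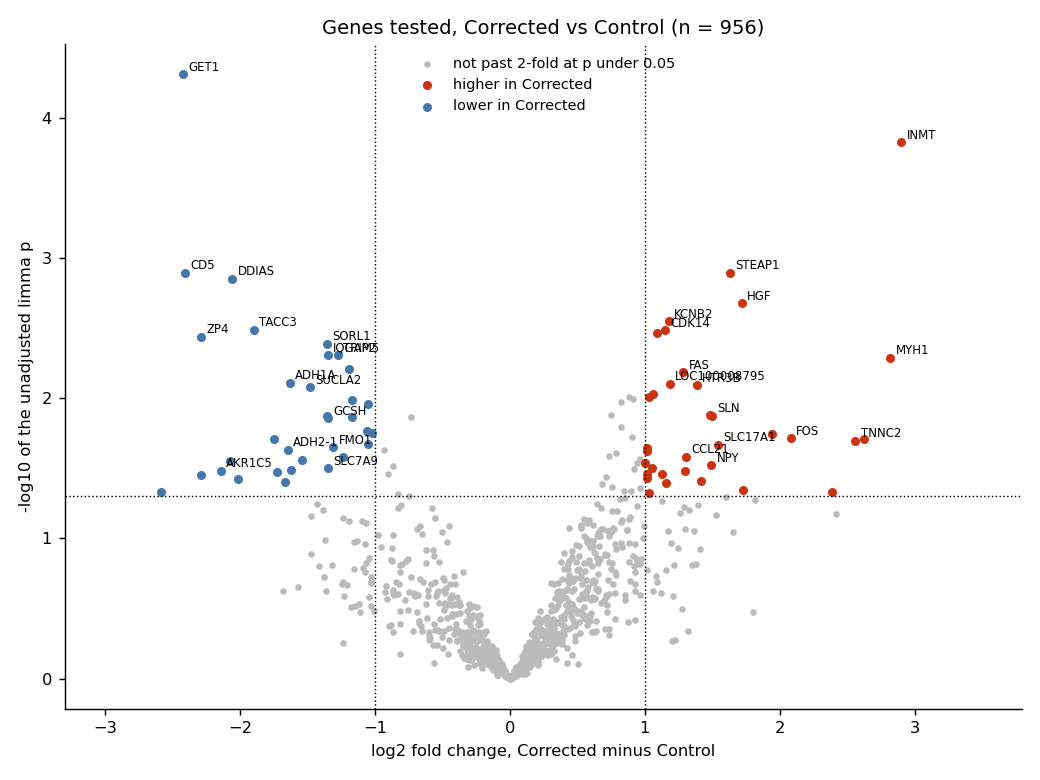
Each point is 1 of the 956 named genes, with its log2 fold change, Corrected minus Control, on the x axis and the negative log10 of its unadjusted limma p on the y axis. Dotted lines mark 2-fold and an unadjusted p of 0.05, and the labelled genes are the 15 largest rises and 15 largest falls among genes whose arrays did not overlap. INMT reached 2.90 and MYH1 2.82 on the right, and GET1 lay highest on the left at -2.43.

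The calls rested on few arrays. For 16 of the 67 genes the call held whichever of the 11 arrays was left out, and these were INMT, MYH1, HGF, STEAP1 and HTR3B among those that rose and GET1, CD5, ZP4, DDIAS, TACC3, ADH1A, SUCLA2, SORL1, IQGAP2, TRIM5 and CD38 among those that fell. Leaving out Corrected replicate 4 ended 36 of the 67 calls, Control replicate 3 ended 27, Control replicate 4 ended 26, Control replicate 1 and Corrected replicate 2 each ended 21, Corrected replicate 1 ended 16, Control replicate 2 ended 9, and single CoA arrays ended 1 to 4. On the slide that carried both groups, Corrected replicate 2 lay above the mean of Control replicates 1, 2 and 4 for 34 of 34 genes that rose and below it for 33 of 33 that fell, and by more than 2-fold for 18 and 25 of them. Corrected replicate 2 is also one of the arrays on which these genes were called, so its direction is not a separate test. With slide as a fixed block, the change of a gene came down to Corrected replicate 2 minus the mean of Control replicates 1, 2 and 4. That fit rests on 1 Corrected array, so a call kept or lost in it, here and below, does not test an effect of slide. Direction did not change for any of the 67 genes under the 27 alternatives run. In several of these the change could not differ from the main fit, as when a CoA array was left out or only the variance model or detection filter was altered. Below, calls lost under alternatives other than leaving out an array are given for some genes only. On the excluded Corrected replicate 3, 26 of the 34 genes that rose lay above every Control array (76.5%, against 51.2% of all 956 genes), and 25 of the 33 that fell lay below every Control array (75.8%, against 30.8%).

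The lowest p among named genes belonged to GET1, which encodes the receptor in the endoplasmic reticulum membrane that takes up tail-anchored proteins. GET1 signals were 9.51, 9.91, 8.66 and 8.67 on Control replicates 1 to 4 and 7.24, 6.78 and 6.27 on Corrected replicates 1, 2 and 4. Every Corrected array was lower than every Control array, and the gap from the highest Corrected to the lowest Control array was wider than the range within either group. GET1 fell by 5.37-fold (-2.43 ± 0.38 (SE), unadjusted p = 4.9e-05, adjusted p = 0.240 in limma), and its 4 other tested probes gave -2.73 to -2.33. The excluded Corrected replicate 3 read 6.41, in the range of the other Corrected arrays. GET1 stayed called under every alternative that kept more than 1 Corrected array, and with slide as a fixed block its change was -2.58.

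GET1 was also one of 7 called genes that differed between Corrected and CoA aorta at an unadjusted p under 0.05, where 4.08% of all named genes did. The 7 are 10.4% of the 67 called genes, and both contrasts use the same Corrected arrays, so the share was not independent of the calls. None passed adjustment, the smallest adjusted p in limma being 0.909 over all probes, and the CoA arrays shared a slide that held no Corrected array. GET1 was 9.16, 8.60, 9.16 and 9.31 on the CoA arrays, and Corrected minus CoA came to -2.30 ± 0.38 (SE; unadjusted p = 7.9e-05, adjusted p = 0.909 in limma). ZP4, a glycoprotein of the egg coat, was dim and read 4.95, 6.002, 4.88 and 5.25 on Control replicates 1 to 4 and 3.90, 1.82 and 3.22 on Corrected replicates 1, 2 and 4. All Corrected arrays were below all Control arrays, yet the excluded Corrected replicate 3 read 5.85, among the Control values. ZP4 fell by 4.89-fold (-2.29 ± 0.62 (SE), unadjusted p = 0.00364, adjusted p = 0.401 in limma) and differed from CoA by -2.57 ± 0.62 (SE; unadjusted p = 0.00171, adjusted p = 1 in limma). With the normexp background correction ZP4 was at -0.51 and no longer called.

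CD38, the ectoenzyme that consumes NAD to make cyclic ADP-ribose, gave 7.03, 6.26, 6.84 and 6.995 on Control replicates 1 to 4 and 5.39, 5.96 and 5.41 on Corrected replicates 1, 2 and 4. It fell (-1.20 ± 0.35 (SE), unadjusted p = 0.00623, adjusted p = 0.443 in limma) without overlap between the groups, while CoA arrays spanned 5.95 to 7.29, and it was not called with slide as a fixed block (-0.81) or with normexp (-0.64). SLC7A9, a subunit of the cystine and basic amino acid transporter of kidney and gut, fell by 1.35 on the log2 scale, with 4.69, 5.29, 5.12 and 4.70 on the Control and 3.97, 4.15 and 2.68 on the Corrected arrays, and its call ended when Control 2 (-1.24), Control 3 (-1.29) or Corrected 4 (-0.89) was left out. SLC7A9 was dim, and on Corrected replicate 4 it lay below that array's lowest signal well above background, 3.82. Its call also ended with normexp and with all 12 arrays. Among genes that rose, MYH1, BAG3 and CALU were above CoA. BAG3, a cochaperone of HSP70 that helps muscle clear damaged filamin, read 13.95, 14.20, 13.50 and 13.34 on the Control and 15.22, 14.82 and 14.47 on the Corrected arrays. The groups did not overlap, the rise was 1.09 ± 0.29 (SE), unadjusted p = 0.00344, adjusted p = 0.398 in limma, all 5 tested probes pointed up, and Corrected minus CoA was 0.93 ± 0.29 (SE; unadjusted p = 0.00902, adjusted p = 1 in limma). BAG3 on the excluded array, at 13.40, lay among the Control arrays, and the call ended when Control 4 (0.96) or Corrected 1 (0.90) was left out. CALU, calumenin, a calcium-binding protein of the secretory pathway, read 4.50, 4.70 and 6.52 on Corrected replicates 1, 2 and 4 against 2.91 to 4.50 on the Control arrays, and rose by 1.42, a call that ended when Control 3 (1.35), Control 4 (1.12) or Corrected 4 (0.78) was left out. The CALU signal was dim, and its call also ended with normexp and without moderation. Corrected minus CoA was 1.34 for CALU, -0.88 for CD38 and -1.83 for SLC7A9.

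**Figure D2:**
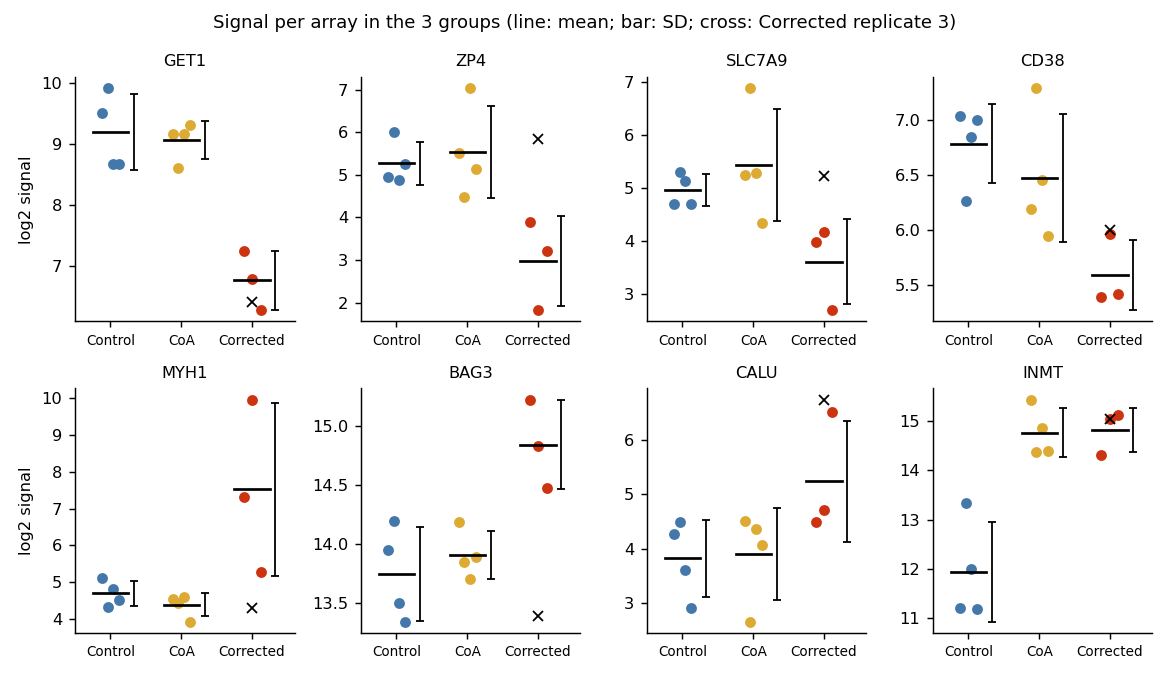
Log2 signal of the 7 genes called against Control that also differed from CoA at an unadjusted p under 0.05, with INMT beside them, in the Control, CoA and Corrected groups. Points are arrays, the line is the group mean, the bar is the SD, and x marks Corrected replicate 3, which is in no mean. GET1, ZP4, SLC7A9 and CD38 sit lowest in the Corrected group, MYH1, BAG3 and CALU sit highest there, and INMT spans 14.37 to 15.45 in CoA and 14.31 to 15.13 in Corrected.

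INMT, an enzyme that methylates the amine of tryptamine and related indoles, had the largest rise. INMT signals were 11.20, 13.34, 12.002 and 11.18 on Control replicates 1 to 4 and 14.31, 15.06 and 15.13 on Corrected replicates 1, 2 and 4. All 3 Corrected arrays exceeded all 4 Control arrays, by least over Control replicate 2. The rise was 7.47-fold (2.90 ± 0.51 (SE), unadjusted p = 0.000149, adjusted p = 0.240 in limma), the excluded array read 15.04, and the gene has 1 tested probe. INMT was called under every alternative and without each array in turn, and it did not pass the criterion against CoA (Corrected minus CoA 0.06 ± 0.51 (SE; unadjusted p = 0.907, adjusted p = 1 in limma)).

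HGF, hepatocyte growth factor, a secreted factor that acts on endothelium through the receptor MET, read 5.96, 6.32, 5.41 and 5.41 on Control replicates 1 to 4 and 6.43, 7.86 and 8.19 on Corrected replicates 1, 2 and 4. Corrected replicate 1 lay only just above the highest Control array, and the other Corrected arrays well above it. HGF rose by 3.29-fold (1.72 ± 0.43 (SE), unadjusted p = 0.00210, adjusted p = 0.351 in limma), and its 2 other tested probes gave 1.61 to 1.97. Of 9 growth factors and receptors tested, HGF was the only one called, where 7.01% of all genes were, and the median of the list was 0.06. BMP2 (0.78 ± 0.45), IGF1 (-0.51 ± 0.74), TGFB2 (-0.11 ± 0.55) and the prolactin receptor PRLR (-1.43 ± 0.67) were not called.

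STEAP1, a membrane protein of the metalloreductase family, read 12.13, 12.46, 11.42 and 10.94 on Control replicates 1 to 4 and 13.07, 13.53 and 13.50 on Corrected replicates 1, 2 and 4. Again the groups did not overlap, the rise was 1.63 ± 0.38 (SE), unadjusted p = 0.00128, adjusted p = 0.338 in limma, and all 3 tested probes pointed up. HTR3B, a subunit of the serotonin-gated channel, read 5.01, 3.49, 4.66 and 5.12 on the Control and 5.78, 5.64 and 6.45 on the Corrected arrays. It rose (1.39 ± 0.43 (SE), unadjusted p = 0.00806, adjusted p = 0.455 in limma) and missed the criterion with normexp (0.45) and with slide as a fixed block (1.102). FOS, an immediate early transcription factor induced within minutes of stretch or growth factor, read 9.39, 7.65, 7.73 and 7.75 on Control replicates 1 to 4 and 9.76, 10.76 and 10.12 on Corrected replicates 1, 2 and 4. The Corrected arrays were above all Control arrays, and Control replicate 1 stood well above the other Control arrays. The rise of FOS was 2.08 ± 0.76 (SE), unadjusted p = 0.0193, adjusted p = 0.531 in limma, and without Corrected replicate 2 it was 1.81 and not called.

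**Figure D3:**
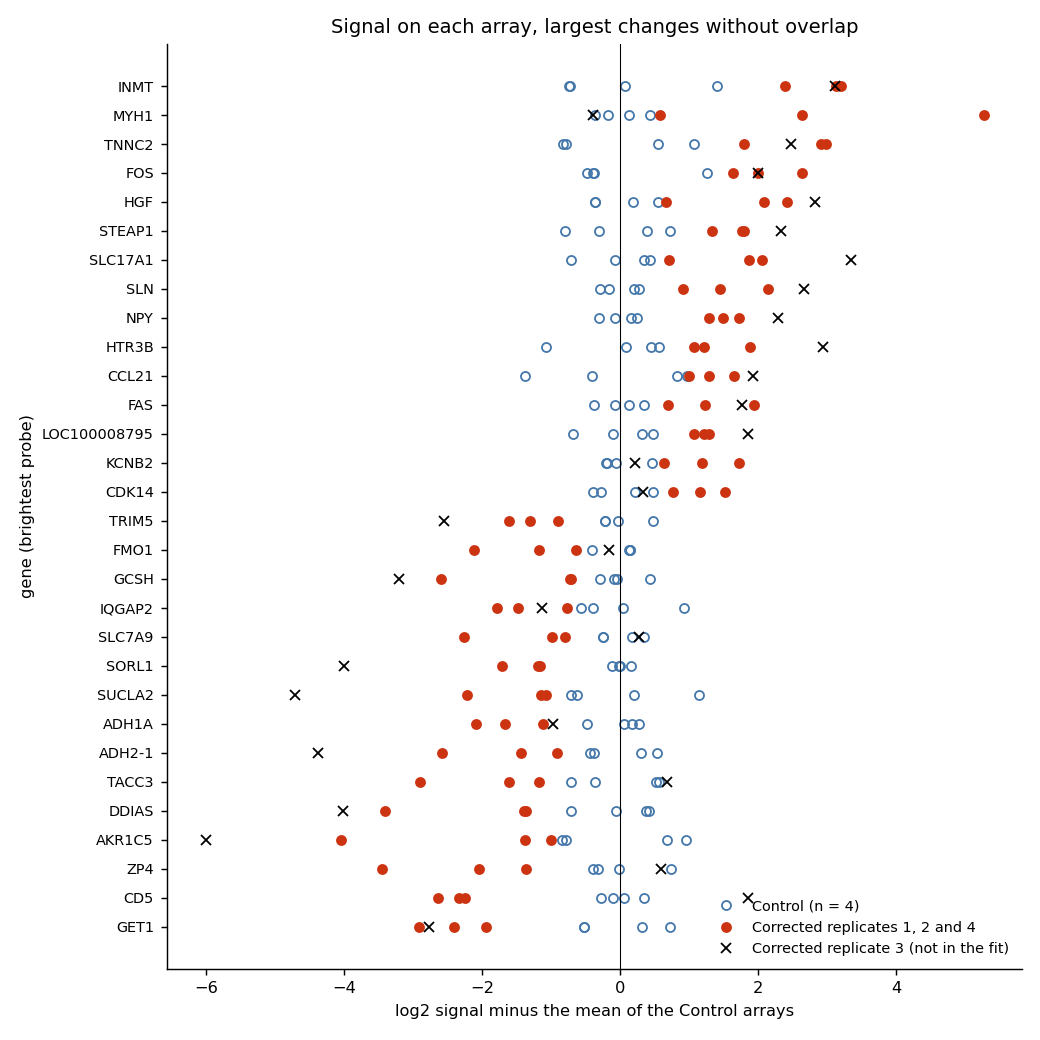
Signal of each array minus the Control mean, on the log2 scale, for the 15 highest and 15 lowest fold changes among called genes whose groups did not overlap. Open blue points are Control arrays, red points Corrected replicates 1, 2 and 4, and x is Corrected replicate 3. INMT and GET1 show a gap in every array, and for MYH1 Corrected replicate 2 lies far above Corrected replicate 4.

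In the main fit skeletal muscle was the list with the most rises, and different members were high on different arrays. Of 18 skeletal muscle genes tested, 4 rose and 0 fell, with a list median of 0.55, against 3.56% and 3.45% of all genes and a median of 0.097. They were MYH1, the heavy chain of fast IIx myosin; TNNC2, the calcium sensor of fast fibres; SLN, sarcolipin, which binds and slows the SERCA calcium pump; and MYL11, the fast regulatory light chain. MYH1 signals were 5.13, 4.33, 4.82 and 4.52 on Control replicates 1 to 4 and 7.33, 9.96 and 5.28 on Corrected replicates 1, 2 and 4. It was high on Corrected replicates 1 and 2 and only slightly above the Control range on Corrected replicate 4, and the excluded array, at 4.31, was below every Control array. The change was 2.82 ± 0.81 (SE), unadjusted p = 0.00515, adjusted p = 0.442 in limma, and Corrected minus CoA 3.14 ± 0.81 (SE; unadjusted p = 0.00262, adjusted p = 1 in limma). MYH1 was not called with all 12 arrays (2.02) or without moderation (2.82). The count of 4 rises in the list became 2 without Control replicate 3 or without Control replicate 4. It was 5 with only the 7 arrays compared and 6 with array weights. Without Corrected replicate 2 it was 3, fewer than the 6 rises of the inflammatory list in that fit.

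ATP2A1, the fast-muscle SERCA pump, followed the same arrays with 6.71, 8.78 and 4.04 on Corrected replicates 1, 2 and 4 against 4.18 to 4.99 on the Control arrays, and it was not called (1.82 ± 0.84). MYL11 had 6.04, 6.90 and 5.27 against 4.87 to 5.41, and its call (1.01) ended when Control 3 (0.95), Control 4 (0.96) or Corrected 2 (0.60) was left out. On these 3 genes Corrected replicate 2 was the highest of the 7 arrays, and Corrected replicate 2 shares its slide with Control replicates 1, 2 and 4. SLN was 7.72, 7.15, 7.64 and 7.28 on Control replicates 1 to 4 and 8.36, 9.59 and 8.89 on Corrected replicates 1, 2 and 4. It was higher on all 3 Corrected arrays, by 1.498 ± 0.51 (SE), unadjusted p = 0.0134, adjusted p = 0.485 in limma, its 3 other tested probes also pointed up, and without Corrected replicate 2 it was 1.18 and not called.

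TNNC2 gave 10.02, 9.49, 8.17 and 8.12 on Control replicates 1 to 4 and 11.93, 10.74 and 11.86 on Corrected replicates 1, 2 and 4. Here Corrected replicates 1 and 4 were highest and Control replicates 3 and 4 lowest, the groups did not overlap, and the rise was 2.56 ± 0.94 (SE), unadjusted p = 0.0202, adjusted p = 0.536 in limma. The call ended when Control 3 (2.30), Control 4 (2.29), Corrected 1 (2.35) or Corrected 4 (2.39) was left out, and with slide as a fixed block (1.53). TNNC1, the troponin C of slow and cardiac muscle, read 11.11, 10.26, 8.83 and 9.04 on Control replicates 1 to 4 and 12.84, 10.55 and 13.19 on Corrected replicates 1, 2 and 4. Corrected replicate 2 lay inside the Control range and the other Corrected arrays above it. TNNC1 rose by 2.38 ± 1.07 (SE), unadjusted p = 0.0468, adjusted p = 0.595 in limma, and the call ended when Control 2 (2.53), Control 3 (2.06), Control 4 (2.13), CoA 1 (2.38), CoA 3 (2.38), Corrected 1 (2.06) or Corrected 4 (1.89) was left out. With slide as a fixed block TNNC1 was 0.41 and not called.

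The other 14 skeletal muscle genes were not called, and 13 of the 18 had a positive difference. JPH1, which ties the sarcoplasmic reticulum to the cell membrane, was at 1.33 ± 0.64, and CACNB1, a calcium channel subunit, missed 2-fold at 0.96 ± 0.42 with an unadjusted limma p under 0.05. On the other side the creatine kinase CKM was at -0.57 ± 1.88, the calcium release channel RYR1 at -0.73 ± 0.52, and the myogenic factor MYOG at -0.90 ± 1.07, while TNNI2, the fast troponin I, was at 0.09 ± 0.53. The mean signal of the list ran from 5.99 to 6.86 on the Control arrays, from 6.43 to 7.22 on the 3 Corrected arrays and from 5.85 to 8.32 on the CoA arrays, so that the groups overlapped. Of 11 cardiac genes, TNNC1 alone was called, where 7.01% of all genes were, and NPPA, the atrial natriuretic peptide, was at 0.31 ± 0.52. How far muscle tissue next to the ring took part in these values was not tested.

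**Figure D4:**
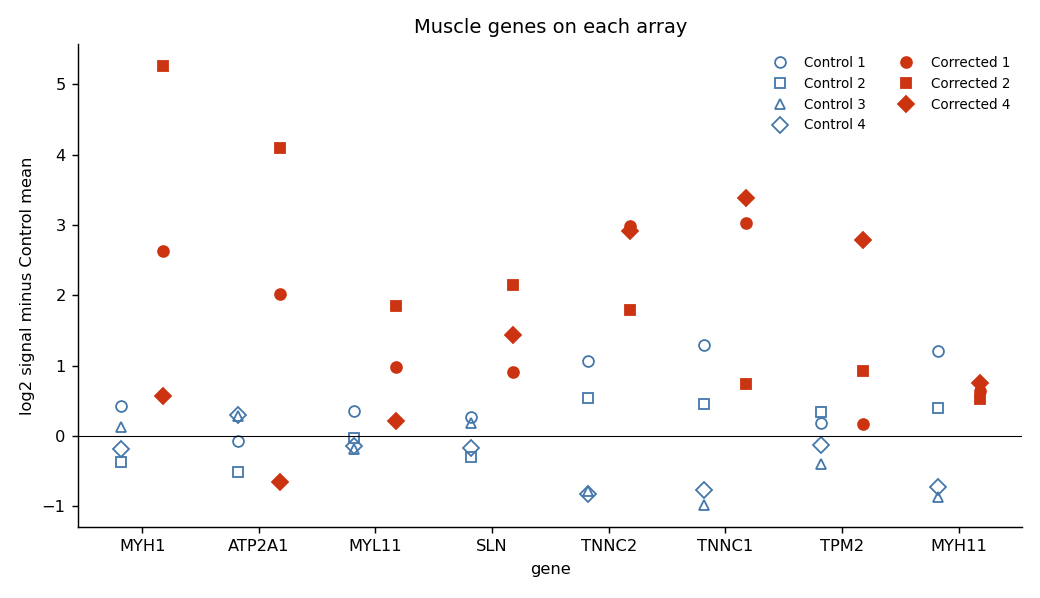
Log2 signal of each array minus the Control mean for MYH1, ATP2A1, MYL11, SLN, TNNC2, TNNC1, TPM2 and MYH11. Open blue markers are Control arrays and filled red markers Corrected replicates 1, 2 and 4, with a marker shape for each replicate number. Corrected replicate 3 is not drawn. MYH1, ATP2A1 and MYL11 peak on Corrected replicate 2, whereas TPM2 and TNNC1 peak on Corrected replicate 4.

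Smooth muscle contractile genes were not lower in Corrected aorta by this criterion. Of 22 listed genes 8 were tested. Of these 8, 1 rose and 0 fell, against 3.56% and 3.45% of all genes. All 8 had a positive difference, and the median was 0.66. Smooth muscle myosin MYH11 read 14.55, 13.73, 12.46 and 12.60 on Control replicates 1 to 4 and 13.97, 13.86 and 14.09 on Corrected replicates 1, 2 and 4, the groups overlapped, and the difference was not called (0.64 ± 0.50 (SE), unadjusted p = 0.229, adjusted p = 0.768 in limma). With all 12 arrays the MYH11 difference was -0.43, the opposite sign. The paper reports that earlier immunohistochemistry in this model found less smooth muscle and more non-muscle myosin protein, in CoA and in corrected rabbits. The values here are of RNA. The paper also states that the MYH11 probe of this array would read only the SM1 isoform. The SM2 isoform, which according to the paper changes with smooth muscle differentiation, would be missed. Smooth muscle actin ACTA2 was at 0.50 ± 0.50, caldesmon CALD1 at 0.67 ± 0.32, desmin DES at 0.78 ± 0.54, tropomyosin TPM1 at 0.29 ± 0.58 and the pore of the large-conductance potassium channel, KCNMA1, at 1.02 ± 0.69. The member that rose was TPM2, beta-tropomyosin, with 9.08, 9.25, 8.51 and 8.78 on the Control and 9.07, 9.84 and 11.69 on the Corrected arrays. Corrected replicate 1 lay within the Control range and Corrected replicate 4 far above it. TPM2 rose by 1.30 ± 0.53 (SE), unadjusted p = 0.0332, adjusted p = 0.569 in limma, and the call ended when Control 3 (1.16), Control 4 (1.25) or Corrected 4 (0.55) was left out. ACTB, the cytoskeletal actin, was level (-0.01 ± 0.23 SE).

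Among 20 inflammatory mediators 3 rose and 0 fell, with 16 of 20 positive and a median of 0.43, where 3.56% of all genes rose. The count depended on single arrays: it was 6 without Corrected replicate 2, 1 without Control replicate 1 and 1 without Corrected replicate 4. SAA3, an acute-phase apolipoprotein made locally in inflamed tissue, read 12.68, 8.47, 10.19 and 9.79 on Control replicates 1 to 4 and 14.79, 11.82 and 12.11 on Corrected replicates 1, 2 and 4. The groups overlapped, since Control replicate 1 was above Corrected replicates 2 and 4. SAA3 rose by 2.62 ± 0.96 (SE), unadjusted p = 0.0196, adjusted p = 0.531 in limma, and the call ended when Control 2 (2.02) or Corrected 1 (1.68) was left out. PTGS2, the inducible cyclooxygenase, was 10.85, 12.71, 11.52 and 11.46 on the Control and 11.90, 13.04 and 13.06 on the Corrected arrays. Control replicate 2 lay within the Corrected range, the rise was 1.03 ± 0.46 (SE), unadjusted p = 0.0477, adjusted p = 0.596 in limma, and the call ended when Control 1 (0.77), Control 3 (0.99), Control 4 (0.97), CoA 2 (1.03), CoA 3 (1.03), CoA 4 (1.03), Corrected 2 (0.85) or Corrected 4 (0.83) was left out. CSF2, the granulocyte-macrophage colony-stimulating factor, rose by 1.06 ± 0.34 (SE), unadjusted p = 0.00937, adjusted p = 0.458 in limma, with 5.10, 5.85, 5.81 and 5.44 on the Control and 6.74, 6.01 and 7.09 on the Corrected arrays. One of its other 4 tested probes pointed down, the other probes ranging from -0.46 to 1.41, and the call ended when Control 1 (0.91), Corrected 1 (0.998) or Corrected 4 (0.82) was left out.

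The cytokines IL6 (2.41 ± 1.19), CXCL8 (1.60 ± 0.73), IL1A (1.52 ± 0.75), IL1B (1.35 ± 0.88) and CCL2 (1.16 ± 0.79) had positive differences that did not pass. IL6 read 6.47, 7.34, 9.30 and 6.40 on Control replicates 1 to 4 and 9.19, 7.99 and 12.20 on Corrected replicates 1, 2 and 4, with ranges within both groups wider than the difference between their means. TNF (0.12 ± 0.61), the adhesion molecule VCAM1 (0.06 ± 0.43) and the receptor TLR4 (0.56 ± 0.41) were not called either. Without Corrected replicate 4 the calls in the inflammatory list were SAA3 upward and CCL4 downward. CCL21, the chemokine that draws T cells and dendritic cells to lymphatic vessels, read 13.37, 12.40, 14.74 and 14.61 on the Control and 14.77, 15.42 and 15.07 on the Corrected arrays. It rose (1.31 ± 0.51 (SE), unadjusted p = 0.0262, adjusted p = 0.556 in limma) with no overlap, and the call ended when Control 1 (1.17), Control 2 (0.85), Corrected 2 (1.14) or Corrected 4 (1.32) was left out.

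Among 6 macrophage genes SPP1 rose and none fell, with a median of 0.72, where 3.56% of all genes rose and 3.45% fell. SPP1 encodes osteopontin, a matrix protein that macrophages and synthetic smooth muscle cells secrete, and it also stood on the matrix list. SPP1 read 12.48, 10.83, 9.60 and 9.40 on Control replicates 1 to 4 and 11.89, 13.06 and 12.62 on Corrected replicates 1, 2 and 4. Control replicate 1 was above Corrected replicate 1, and Control replicates 3 and 4 were far below all Corrected arrays. The rise was 1.95 ± 0.70 (SE), unadjusted p = 0.0178, adjusted p = 0.521 in limma, the excluded array read 12.52, and the call ended when Control 3 (1.62), Control 4 (1.55) or Corrected 2 (1.68) was left out. CYBB, the catalytic subunit of the phagocyte NADPH oxidase, passed an unadjusted limma p of 0.05 but missed 2-fold (0.88 ± 0.28), and its partners CYBA (0.56 ± 0.45) and NCF1 (0.47 ± 0.37) were not called. The scavenger receptor MSR1 was at -0.30 ± 0.53. The list's mean signal ran from 6.15 to 6.52 on the Control arrays and from 6.36 to 8.30 on the Corrected arrays.

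Interferon response genes were all on the low side, with none called, where 7.01% of all genes were. The list's mean signal ran from 6.68 to 9.21 on the Control arrays and from 6.56 to 7.42 on the Corrected arrays, so that the groups overlapped. WARS1 (-0.91 ± 0.78), TLR3 (-0.87 ± 0.71), IFNG (-0.82 ± 0.80) and the class II chain RLA-DR-ALPHA (-1.57 ± 1.22) gave a median of -0.89 over 4 genes tested.

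**Figure D5:**
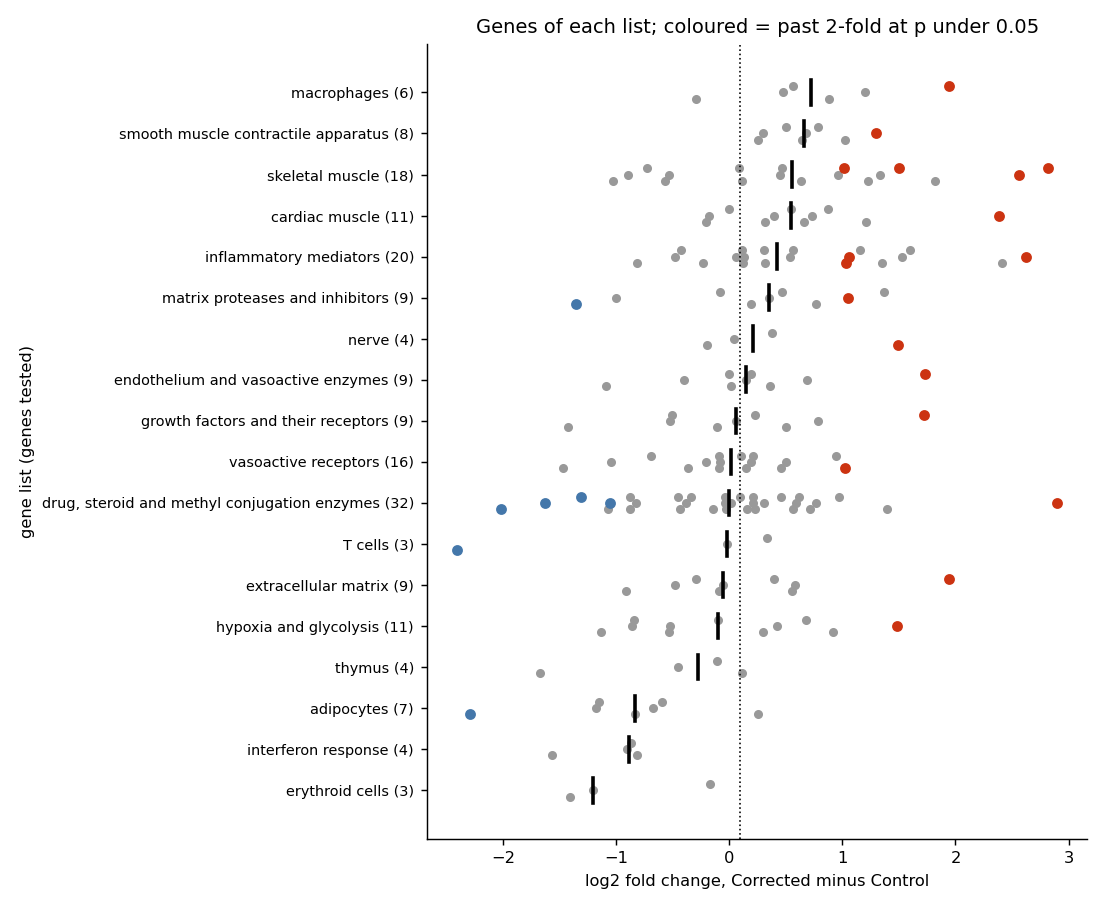
Log2 fold change, Corrected minus Control, of every tested member of the 18 lists with at least 3 tested genes, 1 line per list. Coloured points passed 2-fold at unadjusted p under 0.05, the black bar is the median of the list, and the dotted line is the median of all 956 genes, 0.097. Most points are uncalled, skeletal muscle holds the most upward calls (4) and the drug and conjugation enzymes the most downward calls (4).

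Extracellular matrix genes other than SPP1 were not called, 1 of 9 rising and 0 falling with a median of -0.06. Of all genes 3.56% rose and 3.45% fell. COL1A2, a chain of type I collagen, read 17.41, 17.14, 16.60 and 16.53 on Control replicates 1 to 4 and 16.88, 16.99 and 15.44 on Corrected replicates 1, 2 and 4, with overlapping groups and a difference of -0.48 ± 0.39. COL5A2 (0.40 ± 0.51), COL8A1 (-0.92 ± 0.70), decorin DCN (-0.10 ± 0.39), biglycan BGN (0.56 ± 0.60) and thrombospondin THBS1 (-0.29 ± 0.53) did not pass. Of 9 proteases and inhibitors, 1 rose and 1 fell. MMP1, the interstitial collagenase, fell by 1.36 on the log2 scale, from 7.39, 8.08, 8.42 and 7.63 on the Control arrays to 7.64, 5.58 and 6.35 on the Corrected arrays. Corrected replicate 1 lay within the Control range, and the excluded array, at 10.51, was above every Control array. Without Corrected replicate 2 the MMP1 change was -0.89 and not called.

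TIMP1, which inhibits most metalloproteinases, rose by 1.05 ± 0.43 (SE), unadjusted p = 0.0312, adjusted p = 0.565 in limma, from 12.74, 12.19, 11.70 and 11.53 to 14.05, 12.48 and 12.75. Control replicate 1 was above Corrected replicate 2 and about level with Corrected replicate 4, so that the groups overlapped. The TIMP1 call ended when Control 3 (0.94), Control 4 (0.88) or Corrected 1 (0.58) was left out. MMP2 (-0.08 ± 0.43), MMP9 (1.36 ± 0.73), TIMP3 (0.19 ± 0.41) and the plasminogen activator PLAT (0.77 ± 0.41) were not called. MMP14, a membrane-bound metalloproteinase, was not well above background on any Control array. Its Corrected mean was 2.32-fold above a floor set for those arrays, a value without a test. The floor was the MMP14 signal or the array's lowest signal well above background, whichever was larger. ITGB3, the integrin subunit that binds osteopontin and vitronectin, rose by 1.002 ± 0.40, with its call ending when Control 1 (0.92), Control 4 (0.82), Corrected 1 (0.84) or Corrected 4 (0.83) was left out.

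Among 9 endothelial and vasoactive enzyme genes, where 7.01% of all genes were called, 1 rose, TFPI, which inhibits the tissue factor pathway of coagulation. TFPI read 10.23, 11.35, 11.06 and 11.10 on Control replicates 1 to 4 and 10.93, 12.37 and 14.69 on Corrected replicates 1, 2 and 4. Corrected replicate 1 lay inside the Control range and Corrected replicate 4 far above it, and the rise was 1.73 ± 0.77 (SE), unadjusted p = 0.0453, adjusted p = 0.590 in limma. The TFPI call ended when Control 1 (1.49), Control 2 (1.87), Control 3 (1.77), Control 4 (1.78), CoA 2 (1.73), CoA 3 (1.73), CoA 4 (1.73), Corrected 2 (1.87) or Corrected 4 (0.71) was left out. NOS3, the endothelial nitric oxide synthase, was at 0.15 ± 0.68, caveolin CAV1 at 0.19 ± 0.24, the angiotensin-converting enzyme ACE at 0.36 ± 0.50, and thrombomodulin THBD at 0.69 ± 0.37.

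Of 16 vasoactive receptors, where 3.56% of all genes rose, 1 rose, EDNRA, the endothelin receptor through which smooth muscle contracts. EDNRA was 7.16, 7.55, 7.16 and 7.91 on the Control and 8.33, 7.59 and 9.48 on the Corrected arrays. Only Corrected replicates 1 and 4 exceeded the Control range, and the call ended when Control 1 (0.92), Control 3 (0.92), Corrected 1 (1.09) or Corrected 4 (0.51) was left out. Its partner receptor EDNRB (0.15 ± 0.56), the angiotensin receptors AGTR1 (-0.10 ± 0.34) and AGTR2 (-0.37 ± 0.37) and the adenosine receptor ADORA2B (-1.47 ± 0.90) were not called. NPY, the cotransmitter of sympathetic nerves, rose among 4 nerve genes. NPY read 4.53, 4.62, 4.08 and 4.30 on Control replicates 1 to 4 and 5.66, 6.10 and 5.87 on Corrected replicates 1, 2 and 4. The groups were well apart and all 5 tested probes pointed up, at dim signals. The rise was 1.49 ± 0.60 (SE), unadjusted p = 0.0301, adjusted p = 0.563 in limma, the call ended when Control 3 (1.39), Control 4 (1.47), Corrected 2 (1.38) or Corrected 4 (1.498) was left out, and with normexp it was 0.41 and not called. The receptors NPY1R (0.21 ± 0.47) and NPY2R (0.50 ± 0.34) were not called, nor was the myelin gene PMP22 (0.38 ± 0.31).

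Transport and channel genes were among the remaining rises. SLC2A1, the glucose transporter GLUT1, read 10.47, 11.39, 10.86 and 10.14 on Control replicates 1 to 4 and 11.23, 11.99 and 13.38 on Corrected replicates 1, 2 and 4. Corrected replicate 1 lay within the Control range, the rise was 1.48 ± 0.50 (SE), unadjusted p = 0.0133, adjusted p = 0.485 in limma, all 5 tested probes pointed up, and without Corrected replicate 4 it was 0.90 and not called. Of 11 hypoxia and glycolysis genes, with a median of -0.10, SLC2A1 was the only one called, where 7.01% of all genes were. The glycolytic enzymes GAPDH (-0.52 ± 0.68), LDHA (-0.86 ± 0.71), GPI (-1.14 ± 0.64) and TPI1 (-0.84 ± 0.63) lay on the other side of 0 without a call. SLC17A1, a sodium-phosphate cotransporter of the kidney, rose by 1.54 with no overlap between the groups, and its call ended when Control 4 (1.30), Corrected 1 (1.38) or Corrected 4 (1.28) was left out. KCNB2, a voltage-gated potassium channel, rose by 1.18 with no overlap and was 0.91 without Corrected replicate 1, where the call ended. The KCNB2 call also ended with all 12 arrays and with normexp. The epithelial sodium channel subunit SCNN1B rose by 1.16, a call that ended when Control 1 (0.98), Control 3 (1.13), Control 4 (1.11), CoA 4 (1.16) or Corrected 4 (0.52) was left out. ATP1B1, the beta subunit of the sodium pump, rose by 1.01, and this call ended when Control 1 (1.005), Control 2 (0.94), Control 3 (1.02) or Corrected 4 (0.66) was left out.

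FAS, the death receptor, read 10.09, 10.59, 10.82 and 10.39 on the Control and 11.69, 11.17 and 12.41 on the Corrected arrays. The arrays did not overlap, all 6 tested probes pointed up, the rise was 1.29 ± 0.39 (SE), unadjusted p = 0.00654, adjusted p = 0.443 in limma, and it was 0.96 and not called without Corrected replicate 4. CDK14, a cyclin-dependent kinase, rose by 1.15 and was 0.96 and not called without Corrected replicate 1. Its call also ended with all 12 arrays and with normexp. SELENOT, a selenoprotein of the endoplasmic reticulum, rose by 1.13, MS4A6A by 1.03, ITIH2, a heavy chain that binds hyaluronan, by 1.01, and LOC100008795 by 1.19. The SELENOT call ended when Control 3 (0.90), Control 4 (0.89) or Corrected 4 (0.82) was left out, the MS4A6A call when Control 2 (0.87) or Corrected 4 (0.77) was left out, the ITIH2 call when Control 3 (0.93), Control 4 (0.96), Corrected 1 (1.01) or Corrected 2 (0.62) was left out, and that of LOC100008795 when Control 1 (0.96) was left out.

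Lymphocyte genes were few among the probes that could be named. CD5, a surface receptor of T cells and some B cells, read 7.84, 8.46, 8.01 and 8.17 on Control replicates 1 to 4 and 5.86, 5.47 and 5.79 on Corrected replicates 1, 2 and 4. The groups were far apart, with CoA arrays from 5.44 to 8.36, and the fall was -2.41 ± 0.56 (SE), unadjusted p = 0.00128, adjusted p = 0.338 in limma. On the excluded Corrected replicate 3, CD5 read 9.96, above every Control array, and with all 12 arrays CD5 was -1.35 and not called. CD5 was the only one of 3 tested T cell genes to be called, where 7.01% of all genes were, CTLA4 (0.34 ± 0.51) and IL2 (-0.02 ± 0.56) missing the criterion. The defining T cell marker CD3E was detected on too few arrays to be tested, and it was well above background on 4 of 4 Control and 1 of 3 Corrected arrays. Thymus genes gave 0 calls of 4, among them RAG2 (0.11 ± 0.59) and CD1B (-1.68 ± 1.34). The B cell kinase PRKCB, the one listed B cell gene with a probe named here, was at -1.07 ± 0.55. THEMIS2, a signalling adaptor of B cells and macrophages, fell by 1.75 on the log2 scale from 7.34, 4.78, 7.37 and 7.46 to 5.80, 4.75 and 4.41. Control replicate 2 lay among the Corrected arrays, and the call ended when Control 1 (-1.55), Control 3 (-1.54), Control 4 (-1.51), Corrected 2 (-1.63) or Corrected 4 (-1.46) was left out.

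Fat genes were low on some Corrected arrays. PPARG, the master regulator of adipocyte differentiation, read 11.44, 9.19, 10.68 and 10.76 on Control replicates 1 to 4 and 9.72, 8.62 and 6.32 on Corrected replicates 1, 2 and 4. Corrected replicate 1 lay within the Control range and Corrected replicate 4 far below it. PPARG fell by 2.29 ± 0.96 (SE), unadjusted p = 0.0352, adjusted p = 0.572 in limma, and the call ended when Control 1 (-1.99), Control 3 (-2.24), Control 4 (-2.21), Corrected 2 (-2.49) or Corrected 4 (-1.34) was left out. Of 7 adipocyte genes PPARG was the only one called, where 7.01% of all genes were, 6 of 7 were negative, and the median was -0.83. The thyroid hormone deiodinase DIO2 passed an unadjusted limma p of 0.05 but missed 2-fold (-0.83 ± 0.37), while the adipokine ADIPOQ (-1.15 ± 1.06), the lipase LPL (-0.60 ± 0.79) and the insulin-responsive glucose transporter SLC2A4 (-0.67 ± 0.75) did not pass. The defining marker UCP1 was detected on too few arrays to be tested. The mean of the list was 9.27, 8.23, 9.19 and 9.26 on Control replicates 1 to 4 and 9.14, 7.58 and 7.48 on Corrected replicates 1, 2 and 4. It ran from 5.87 to 8.49 on the CoA arrays. Of 3 erythroid genes none was called, with HBA at -1.21 ± 0.92, and their mean signal was 14.90, 14.10, 14.80 and 14.89 on the Control arrays and 14.97, 13.35 and 12.91 on the Corrected arrays. Whether fat or blood left on the ring took part in the calls was not tested.

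MYOC, myocilin, a secreted glycoprotein, had the largest fall of all called genes, -2.58 ± 1.15 (SE), unadjusted p = 0.0464, adjusted p = 0.593 in limma. It read 9.42, 7.16, 10.08 and 10.24 on Control replicates 1 to 4 and 9.35, 6.31 and 4.26 on Corrected replicates 1, 2 and 4. The groups overlapped, since Corrected replicate 1 was level with Control replicate 1 and Control replicate 2 was low, and the call ended when Control 1 (-2.52), Control 3 (-2.30), Control 4 (-2.25), CoA 2 (-2.58), CoA 3 (-2.58), CoA 4 (-2.58), Corrected 2 (-2.42) or Corrected 4 (-1.40) was left out.

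Of 32 drug, steroid and methyl conjugation enzymes tested, 1 rose (INMT) and 4 fell (ADH1A, CYP2C, CYP7A1 and FMO1), 16 were positive and 16 negative, and the median was -0.01, where 3.45% of all genes fell. The 4 falls became 2 without Control replicate 3, without Corrected replicate 2 and with each array scaled to its 75th percentile, and 6 without Control replicate 2. ADH1A, an alcohol dehydrogenase, read 15.67, 15.02, 15.56 and 15.78 on Control replicates 1 to 4 and 13.83, 13.41 and 14.38 on Corrected replicates 1, 2 and 4. The Corrected arrays were all below the Control arrays, the fall was -1.63 ± 0.50 (SE), unadjusted p = 0.00778, adjusted p = 0.455 in limma, all 3 tested probes pointed down, and the call held without each array in turn but not with scaling to the 75th percentile (-1.30). A second alcohol dehydrogenase, ADH2-1, fell by 1.65 on the log2 scale without overlap, with its call ending when Control 1 (-1.47), Control 2 (-1.55) or Corrected 4 (-1.18) was left out. FMO1, a flavin monooxygenase that oxidises nitrogen and sulphur in drugs, read 13.44, 12.89, 13.42 and 13.43 on the Control and 12.66, 11.18 and 12.12 on the Corrected arrays. It fell by 1.31 ± 0.49 (SE), unadjusted p = 0.0223, adjusted p = 0.543 in limma, all 6 tested probes pointed down, and without Corrected replicate 2 it was -0.91 and not called.

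FMO4 fell as well (-1.05), a call that ended when Control 1 (-0.93) or Corrected 4 (-0.79) was left out, while FMO2 (-0.03 ± 0.36) and FMO5 (-0.34 ± 0.57) did not. CYP7A1, the rate-limiting enzyme of bile acid synthesis, gave a bright signal here, 14.23, 14.72, 15.11 and 14.77 on the Control and 12.97, 14.07 and 13.93 on the Corrected arrays. It fell by 1.05 ± 0.34 (SE), unadjusted p = 0.0109, adjusted p = 0.465 in limma, and the call ended when Control 3 (-0.92) or Corrected 1 (-0.71) was left out. A CYP2C gene fell by 2.02 on the log2 scale, with calls ending when Control 3 (-1.72), Control 4 (-1.66), Corrected 2 (-1.77) or Corrected 4 (-1.74) was left out, whereas CYP2C2 (-0.04 ± 0.41), CYP2C4 (-0.46 ± 1.02) and CYP2C16 (0.21 ± 0.47) were not called. Probe sequences were not used here, so how far close copies of these families, of the myosins or of the SAA genes share a probe's signal was not tested.

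AKR1C5, an aldo-keto reductase of steroids, read 12.31, 12.25, 13.77 and 14.04 on Control replicates 1 to 4 and 12.09, 11.71 and 9.05 on Corrected replicates 1, 2 and 4. Corrected replicate 4 was far below the rest, the fall was 2.14 ± 0.88 (SE), unadjusted p = 0.0329, adjusted p = 0.568 in limma, and the call ended when Control 3 (-1.92), Control 4 (-1.83) or Corrected 4 (-1.19) was left out. CBR1, carbonyl reductase, fell by 2.08 (call ending when Control 1 (-1.86), Control 4 (-1.92), Corrected 2 (-2.04) or Corrected 4 (-1.54) was left out), and PTGR1, prostaglandin reductase, by 1.67, from 11.11, 7.89, 8.95 and 8.90 to 7.94, 7.53 and 7.16. Control replicate 1 was far above the other Control arrays for PTGR1, and the call ended when Control 1 (-1.04), Control 3 (-1.75), Control 4 (-1.77), Corrected 1 (-1.87), Corrected 2 (-1.66) or Corrected 4 (-1.48) was left out.

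SUCLA2, a subunit of succinyl-CoA synthetase, read 14.71, 13.76, 12.86 and 12.94 on Control replicates 1 to 4 and 12.49, 12.41 and 11.35 on Corrected replicates 1, 2 and 4. No Corrected array reached the Control range, the fall was 1.48 ± 0.46 (SE), unadjusted p = 0.00835, adjusted p = 0.455 in limma, and the call held without each array in turn, but not with slide as a fixed block (-1.39), without moderation (-1.48) or with array weights (-0.96). SHMT1, serine hydroxymethyltransferase, fell by 1.73 with Corrected replicate 1 inside the Control range, and the call ended when Control 1 (-1.53), Control 3 (-1.63), Control 4 (-1.64), Corrected 2 (-1.41) or Corrected 4 (-1.27) was left out. GCSH, the carrier protein of the glycine cleavage system, fell by 1.34 with all 11 tested probes down, and was -0.72 without Corrected replicate 4. AK3, a mitochondrial adenylate kinase, fell by 1.17 with all 7 tested probes down and was -0.79 without Corrected replicate 4, and PDPR, which regulates pyruvate dehydrogenase phosphatase, fell by 1.17. GCSH and AK3 were not called without that array, and the PDPR call ended when Control 1 (-0.95), Corrected 2 (-1.03) or Corrected 4 (-1.002) was left out.

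The remaining falls had no list of their own. TACC3, a protein of the mitotic spindle, read 11.02, 11.36, 12.24 and 12.29 on Control replicates 1 to 4 and 10.12, 8.82 and 10.55 on Corrected replicates 1, 2 and 4. The groups did not overlap, the fall was 1.90 ± 0.51 (SE), unadjusted p = 0.00326, adjusted p = 0.392 in limma, and the excluded array, at 12.40, was above every Control array. With all 12 arrays TACC3 was -1.26 and not called. DDIAS, a suppressor of apoptosis after DNA damage, read 6.70, 6.06, 7.13 and 7.18 on the Control and 5.40, 5.36 and 3.35 on the Corrected arrays, a fall of 2.06 ± 0.49 (SE), unadjusted p = 0.00140, adjusted p = 0.338 in limma. It was -0.89 with normexp and -1.28 with slide as a fixed block, and not called in either. SORL1, a sorting receptor of the LDL receptor family, gave tight Control values of 8.63, 8.51, 8.62 and 8.78 against 7.45, 6.92 and 7.47, a fall of 1.36 ± 0.38 (SE), unadjusted p = 0.00411, adjusted p = 0.415 in limma. TRIM5, a restriction factor of retroviruses, read 10.84, 10.14, 10.13 and 10.32 against 8.74, 9.46 and 9.04 and fell by 1.28 ± 0.36 (SE), unadjusted p = 0.00494, adjusted p = 0.439 in limma, and IQGAP2, a scaffold that binds actin and Rac, fell by 1.35 ± 0.39 (SE), unadjusted p = 0.00493, adjusted p = 0.439 in limma with all 5 tested probes down. For SORL1, TRIM5 and IQGAP2 every Corrected array was below every Control array, and the calls held without each array in turn. With normexp SORL1 (-0.98) and IQGAP2 (-0.69) were no longer called, and with slide as a fixed block TRIM5 (-0.97) was not.

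The last falls depended on single arrays. GDF9, an oocyte growth factor, fell by 1.02, a call that ended when Control 1 (-0.93), Control 4 (-0.98) or Corrected 4 (-0.63) was left out. CFAP43, a protein of cilia, fell by 1.23, and its call ended when Control 1 (-0.97), Corrected 1 (-1.22) or Corrected 4 (-0.86) was left out. SPRR3, a protein of squamous epithelium also found in arterial smooth muscle, fell by 1.06 at its brightest probe, but its other tested probes ranged from -0.12 to 0.62, and the call ended when Control 3 (-0.93) or Corrected 1 (-0.82) was left out. LOC100353676 fell by 1.63 (call ending when Control 1 (-1.67), Control 3 (-1.34), Control 4 (-1.33), Corrected 2 (-1.75) or Corrected 4 (-1.01) was left out) and LOC100008612 by 1.54 (call ending when Control 2 (-1.45), Control 3 (-1.39), Corrected 2 (-1.01) or Corrected 4 (-1.12) was left out). Of the 67 called genes, 38 had more than 1 tested probe, and in 36 of these all tested probes pointed the same way, CSF2 and SPRR3 being the exceptions. Genes discussed here beyond the lists and the largest changes were chosen after their values were seen, because they were called.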

How the data were processed

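Total RNA of 12 aortic rings was amplified, labelled with Cy3 and hybridised by the authors to 1-colour Agilent rabbit arrays, 1 array per rabbit. The authors deposited the scanner output of Agilent Feature Extraction 11.0.1.1 with processed, median and background intensity per spot, on a linear scale. Processed intensity, which the scanner software had already corrected for background, was set to log2 and quantile normalized over the 12 arrays, with control and outlier spots left out and spots of a probe averaged. Probes detected on at least 8 of 12 arrays were tested with limma 3.58.1 (R 4.3.3) in 1 model over 11 arrays, Corrected minus Control, two-sided, with Benjamini-Hochberg adjustment over the 27283 probes. The steps were tested on simulated data. The criterion of more than 2-fold at unadjusted p under 0.05, the detection rule and the left-out array follow the study. The study's methods do not name the test model, so limma was chosen here.

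Genes were named by RefSeq accession through the RefSeq table of mOryCun1.1, used for names only, since the arrays were annotated on another build. A gene stands by its brightest probe over the 11 arrays. Named genes are the 15 largest rises and 15 largest falls among called genes whose groups did not overlap, list members that were called with up to 4 others per list, genes that the paper names and that have a probe, and GAPDH, MYH11 and collagens. The groups and gene lists were chosen with earlier results of these data known. No probe was saturated. The number of arrays limits the precision. Samples were grouped by their titles. Replicate numbers were not used as pairs in the main fit. Deviations from the group means correlated at 0.310, 0.471 and -0.088 between same-numbered arrays 1, 2 and 4. With the other Control arrays, Corrected replicate 1 gave -0.579, 0.297 and 0.274, and Corrected replicate 2 gave -0.200, -0.374 and -0.168. Corrected replicate 4 gave -0.091, 0.084 and 0.072. The same-numbered array was thus the closest for Corrected replicates 1 and 2, and not for 4. Alternatives changed the arrays in the fit, normalization, background correction, detection filter, variance model and blocks, and left out each array in turn.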

Additional observations from a re-analysis of the deposited data

Results flagged for a closer look

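Among 53 named genes examined in groups of 4 arrays, 1 Control array stood apart from the other Control arrays for 2 genes, and chance sets 1 array apart in about 1 in 20 groups. FMO1 was lowest on Control replicate 2 at 12.89, against 13.42 to 13.44 on the other Control arrays, and the gap made up 0.962 of the group's range. FOS was highest on Control replicate 1 at 9.39, against 7.65 to 7.75 on the others, with a gap of 0.942 of the range.

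Corrected replicate 3 is in no fit of the main result and only in the alternatives with all 12 arrays. On it, 3 genes that fell on the other Corrected arrays lay above every Control array. CD5 read 9.96 there against at most 8.46 on the Control arrays, MMP1 read 10.51 against at most 8.42, and TACC3 read 12.40 against at most 12.29. On that array 45.6% of spots were well above background, fewer than on any other of the 12 arrays. The part of the lower detection in these values was not tested.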

How the results depend on the processing

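The count of 1471 probes past 2-fold became 2851 with all 12 arrays, 2546 with all 12 and array weights, 584 with normexp, 2428 with no detection filter, 837 without moderation and 653 with slide as a fixed block, and it ran from 764 (without Corrected replicate 4) to 2404 (without Corrected replicate 1) when each array was left out, with 2363 without Corrected replicate 2. The fit with replicate number as a block gave 1106, where of the numbers only 2 marks arrays on a shared slide (replicates 2 of both groups), and 40 of the 67 genes were still called in it. The split of 658 higher and 813 lower probes became 771 and 706 with each array scaled to its 75th percentile, which moved the median log2 change of all probes from 0.025 to 0.130, 142 and 442 with normexp, 1737 and 1114 with all 12 arrays, 1208 and 1338 with array weights, and 1336 and 1027 without Corrected replicate 2. The count of 0 probes past adjustment became 1 with the 7 arrays alone, 1 with these also normalized alone, 1 without moderation and 78 with array weights, and ran from 0 to 1 over arrays left out (1 without CoA replicate 1). The single probe has no symbol, with a change of -4.50 (adjusted p = 0.274 in the limma fit over 11 arrays). The 208 probes past 6-fold became 51 with normexp, 131 when detection was required on all 7 arrays, 339 with no filter, 120 without moderation and 126 with Control replicates 3 and 4 as 1 sample, and ran from 112 (without Corrected replicate 4) to 348 (without Corrected replicate 1), with 121 without Control replicate 4. MYH11, not called, changed sign from 0.64 to -0.43 with all 12 arrays. GET1, INMT, STEAP1 and HGF were called under all 27 alternatives, 35 of the 67 genes with normexp, 36 without moderation and 37 with Control replicates 3 and 4 as 1 sample. The causes were not tested. Of the probes that fell, 31.6% lay near background on 1 or more of the 7 arrays, and of those that rose 16.3%, where signal over background limits the fold.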

Other observations

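Some genes that mark cells of the wall or its surroundings were detected on too few arrays for the comparison, and their values are given without a test. The T cell receptor component CD3E read 6.84, 4.86, 5.50 and 5.78 on Control replicates 1 to 4 and 4.35, 2.07 and 1.21 on Corrected replicates 1, 2 and 4, with 1 of the 3 Corrected arrays well above background. CD247, the zeta chain of the same receptor, read 7.13, 5.08, 6.25 and 6.26 on Control replicates 1 to 4 and 5.06, 3.29 and 2.83 on Corrected replicates 1, 2 and 4, well above background on 4 of 4 Control and 1 of 3 Corrected arrays. UCP1, the uncoupling protein of brown fat, read 6.19, 4.13, 7.09 and 7.33 on Control replicates 1 to 4 and 3.49, 3.78 and 3.81 on Corrected replicates 1, 2 and 4, well above background on 4 and 2 arrays. MYL1, the fast-muscle essential light chain, read 2.97, 2.01, 3.10 and 2.17 on Control replicates 1 to 4 and 5.30, 8.57 and 2.79 on Corrected replicates 1, 2 and 4, and like MYH1 it was highest on Corrected replicate 2.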
